A study of Homo sapiens with 6 samples.

Results

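The genes described here are 10 enzymes that make serine, turn it over, and link it to homocysteine, cysteine and methionine: PHGDH, PSAT1, PSPH, SRR, CBS, CTH, MAT2A, AHCY, MTR and MTAP. They were taken by symbol from a table of 54261 genes, all 10 were found, and all 10 passed the low-count filter that left 13896 genes for testing. RNA sequencing was run on 6 libraries of T24, an established human bladder cancer cell line. In 3 libraries MTHFD2 was targeted by a lentiviral short hairpin RNA, numbered shRNA2. In the other 3 the cells carried the control virus, called NC. Both viruses also bore the fluorescent protein ZsGreen and puromycin resistance, and both cultures were selected with puromycin, so the controls share the infection and the drug. Although the series' design text calls the gene knocked out, the labels name a hairpin, which lowers a transcript without removing the gene. A single hairpin was sequenced. Nothing in the labels says that replicates were separate cultures, and the p-values therefore cover only the spread among these libraries, which may be technical.

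Cells make serine from a glycolytic intermediate in 3 steps: PHGDH oxidises 3-phosphoglycerate, PSAT1 adds an amino group taken from glutamate, and PSPH removes the phosphate. Serine then gives a one-carbon unit to folate, and in mitochondria MTHFD2 carries that unit on towards formate. In the methionine cycle MAT2A makes S-adenosylmethionine (SAM), the cell's methyl donor, AHCY splits the spent donor into adenosine and homocysteine, and MTR remethylates homocysteine with a methyl group from folate. CBS and CTH lead homocysteine and serine away to cysteine. MTAP returns methylthioadenosine, a by-product of polyamine synthesis, to methionine, and SRR turns L-serine into D-serine.

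Library totals ran from 18452506 to 19896302 counts after knockdown and from 17801990 to 19978392 in the controls. Levels are given as CPM, counts scaled by library size. A gene without counts could still be at up to 3 counts, or 0.149 to 0.171 CPM at these depths, by counting error only. MTHFD2 itself held 538, 667 and 686 counts in the knockdown libraries, against 3241, 3613 and 3417 in the controls. Of the bladder line markers, KRT7, KRT8, KRT18 and VIM were well expressed. UPK3A had no count, and KRT19, UPK2 and GATA3 had at most 6 counts in any library. The summed level of the 11 bladder line markers was 2256 to 2782 CPM in the knockdown libraries, against 3935 to 4612 CPM in the controls. Of the 7 tested, KRT8 (log2 fold change -1.27), KRT18 (-0.89) and VIM (-0.45) fell and FOXA1 (0.53) rose. The summed level of 12 fibroblast markers was 46.7, 12.3 and 40.7 CPM in knockdown replicates 1, 2 and 3, against 7.35, 9.36 and 7.91 CPM in the controls, and 5 of the 6 tested rose. None of the 12 was at 0 in every library, but PDGFRA, PDGFRB, POSTN, FAP, THY1 and DPT were too low to test. DPT held 1 count, in knockdown replicate 1, and none elsewhere. The sums of the other marker lists in the knockdown libraries, against the controls, were 1.69 to 3.63 CPM against 2.55 to 3.59 CPM for leukocytes. They were 1.18 to 1.71 CPM against 2.12 to 3.02 CPM for endothelium, and 7.12 to 11.1 CPM against 3.25 to 5.15 CPM for hepatocytes, the last mostly from CPS1. CD3D and NKG7 of the leukocyte list and TTR and BHMT of the hepatocyte list had no count in any library. Because knockdown replicates 1 and 3 held most of the fibroblast marker counts, each enzyme called below is also given with knockdown replicate 2 alone. The part of the bladder line markers in the results was not tested.

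Of the 10 enzymes, PSAT1 fell and SRR rose, and the other 8 did not pass. The test was edgeR's quasi-likelihood test with Benjamini-Hochberg adjustment over the 13896 genes and a threshold of 0.05. Over all tested genes, 17.3% passed, 9.71% higher and 7.58% lower in the knockdown libraries, so a count of 2 among 10 is close to the background. By unadjusted p, 5 of the 10 and 4636 of all tested genes were under 0.05, and DESeq2 called 3 of the 10, beside 1423 higher and 1278 lower over all genes. The median log2 fold change of the 10 was 0.06, beside 0.01 over all tested genes, with 5 above and 5 below 0. Changes were small: the log2 fold changes lay between -0.54 for PSAT1 and 0.44 for CTH. For 7 of the 10 the groups did not overlap, which held for 39.1% of all tested genes. In bulk RNA, fewer cells that express a gene and less of its RNA per cell cannot be told apart.

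**Figure D1:**
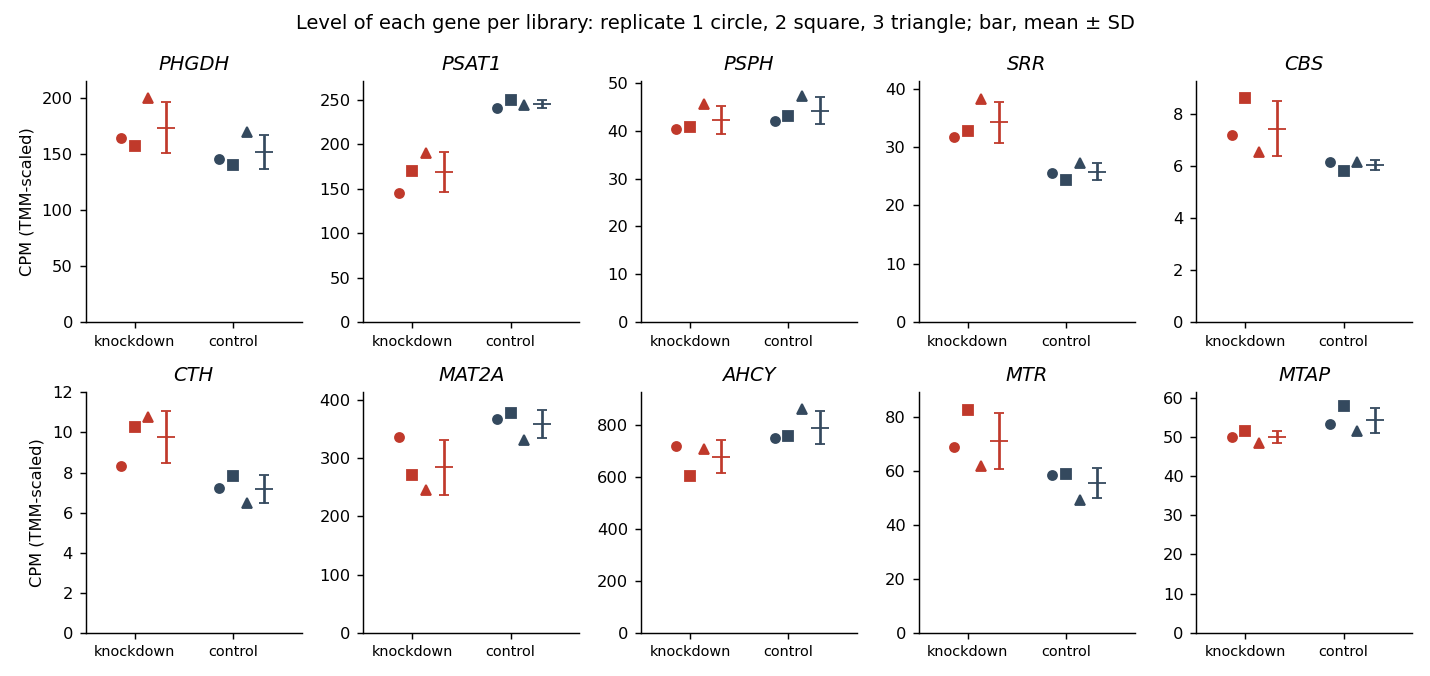
Level of each of the 10 genes in CPM on TMM-scaled library sizes, with knockdown libraries on the left and controls on the right of each panel; points are single libraries and bars are the mean ± SD of 3. The 3 knockdown points lie wholly below the controls for PSAT1, AHCY and MTAP and wholly above them for SRR, CBS, CTH and MTR.

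PSAT1 is the member whose fall held under every setting tried, so the 250 bases before its transcription start are shown, from RefSeq on GRCh38.p14 (chr9:78296875-78297124, plus strand). Capitals mark 3 CCAAT boxes and 1 GC box (GGGCGG), letters that were searched on both strands.
PSAT1: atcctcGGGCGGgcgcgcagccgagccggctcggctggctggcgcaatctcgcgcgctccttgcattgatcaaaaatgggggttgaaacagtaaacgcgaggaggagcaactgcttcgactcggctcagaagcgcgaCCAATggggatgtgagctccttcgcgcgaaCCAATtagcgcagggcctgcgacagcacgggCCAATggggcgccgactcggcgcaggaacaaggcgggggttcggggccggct
The CCAAT boxes begin 113, 83 and 52 bases before the start, all on the plus strand. RefSeq windows of 250 bases before to 50 after the start were found for 9 of the 10 genes, 15 windows in all. PSPH has no entry. A CCAAT box was present in 9 of the 15 windows and in 34.6% of 35116 windows of all genes, and a GC box in 12 of the 15 and in 45.0% of all. Some boxes are counted more than once, because the 2 windows of SRR overlap, as do the 2 of MTR. By gene, a CCAAT box was found in 7 and a GC box in 8 of the 9. A share by gene over all genes was not computed. The composite C/EBP-ATF element TGATGNAA, through which ATF4 acts on several amino acid genes, was in none of the 15 and in 3.62% of all. The E-box CACGTG was in none of the 15 and in 7.26% of all windows. The antioxidant response core TGACNNNGC was in 1 window, of CBS, and in 13.3% of all. These matches are descriptions of letters in short windows, and nothing follows from them about binding.

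Of the 3 serine synthesis genes PSAT1 passed, and PHGDH and PSPH did not. PSAT1 (GRCh38 chromosome 9, 78297143 to 78330093, plus strand) held 2930, 3371 and 3559 counts in the knockdown libraries, against 4232, 4807 and 4600 in the controls. In CPM it was at 146, 170 and 191 after knockdown and at 241, 250 and 244 in the controls. Each knockdown library was lower than every control, and the controls lay much closer together than the knockdown libraries. This is a fold of 0.688, or -0.54 ± 0.11 on the log2 scale (SE; edgeR adjusted p = 0.0084). It stayed between -0.64 and -0.44 when any 1 of the 6 libraries was left out, with an edgeR adjusted p of at most 0.0348. With knockdown replicate 2 alone against the controls it was -0.54. That library held 12.3 CPM of fibroblast markers, against 7.35, 9.36 and 7.91 CPM in the controls. Any link between these fibroblast markers and the PSAT1 value was not tested. PSAT1 has 4 listed pseudogenes, of which PSAT1P3 alone had counts, 50 over the 6 libraries, or 0.213% of the PSAT1 counts.

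PHGDH (chromosome 1, 119648411 to 119744226, plus strand), the enzyme of the first step, did not pass. It was at 164, 157 and 200 CPM in the knockdown libraries and at 145, 140 and 169 CPM in the controls, and the groups overlapped. Replicate 3 was the highest of its group in both. On the log2 scale the difference was 0.19 ± 0.12 (SE; edgeR adjusted p = 0.276), with a 95% interval from -0.07 to 0.45. PSPH (chromosome 7, 56011051 to 56051604, minus strand), the last step, was at 40.3, 40.8 and 45.5 CPM after knockdown and 42.0, 43.1 and 47.3 CPM in the controls. The log2 difference was -0.06 ± 0.11 (SE; edgeR adjusted p = 0.706), and the 95% interval of -0.30 to 0.17 leaves room for a change of either sign. Its only listed pseudogene, PSPHP1, had 4 counts in all.

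Ratios of counts between these genes within a library do not depend on how libraries are scaled. They were chosen after the values had been seen. The PSAT1 count was 0.887, 1.08 and 0.954 times the PHGDH count in knockdown replicates 1 to 3, against 1.66, 1.78 and 1.44 times in control replicates 1 to 3. The mean ratio was 0.975 ± 0.100 after knockdown and 1.63 ± 0.171 in the controls (SD, n = 3 each), with no overlap. PSAT1 over PSPH was 3.99 ± 0.326 after knockdown and 5.57 ± 0.354 in the controls, again with no overlap. PHGDH over PSPH was 4.10 ± 0.274 after knockdown and 3.44 ± 0.162 in the controls. Each of these 3 ratios gave p = 0.10 in an exact 2-sided permutation test of the log ratio, the smallest that 3 libraries against 3 allow, or 0.15 after Benjamini-Hochberg adjustment over 6 ratios.

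**Figure D2:**
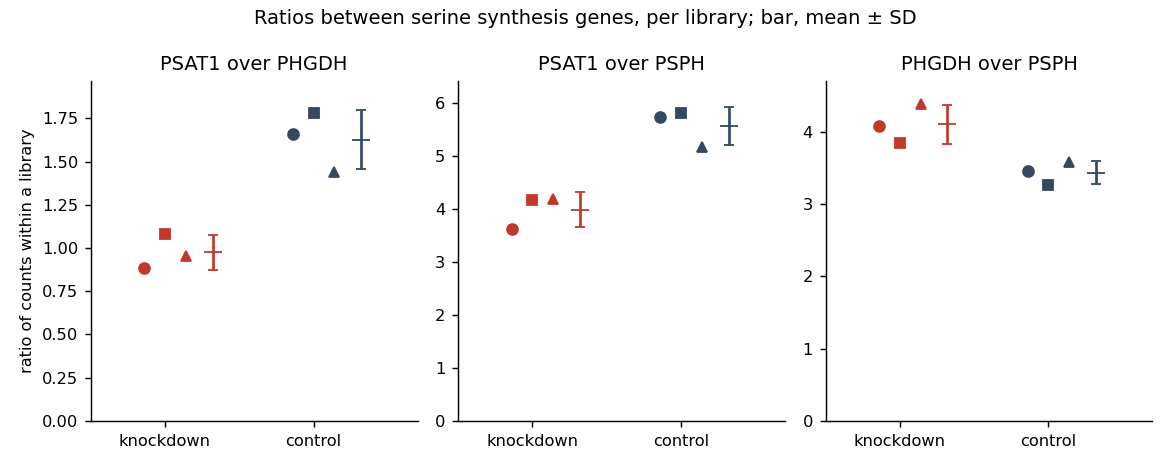
Ratio of the counts of pairs of serine synthesis genes within each library, knockdown on the left and control on the right; circles, squares and triangles are replicates 1, 2 and 3, and bars are the mean ± SD. The ratio of PSAT1 to PHGDH lies between 0.887 and 1.08 in the knockdown libraries and between 1.44 and 1.78 in the controls.

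SRR, the serine racemase, rose. SRR (chromosome 17, 2303383 to 2325260, plus strand) was at 31.7, 32.8 and 38.2 CPM in the knockdown libraries and at 25.6, 24.4 and 27.4 CPM in the controls, with no overlap. This is a fold of 1.33, or 0.41 ± 0.12 on the log2 scale (SE; edgeR adjusted p = 0.034). Leaving out control replicate 1, 2 or 3 ended the call (edgeR adjusted p = 0.129, 0.129 and 0.0722), as did leaving out knockdown replicate 3 (adjusted p = 0.0661), with log2 fold changes from 0.32 to 0.45 in those fits. With knockdown replicate 2 alone it was 0.34 (edgeR adjusted p = 0.0784). SRR shares 1146 exonic bases with TSR1, a ribosome assembly gene on the opposite strand, and whether counting used strand is not given in the sources used here. TSR1 was at 166 ± 15.6 CPM after knockdown and 206 ± 2.14 CPM in the controls (SD, n = 3 each), a log2 fold change of -0.31 that did not pass (edgeR adjusted p = 0.0535). SMG6, also on the opposite strand, shares 68 exonic bases with SRR and was at 57.0 ± 9.97 CPM after knockdown and 56.6 ± 0.200 CPM in the controls. The pseudogene HNRNPA1P16 shares 282 bases and held 216 counts over the 6 libraries. Reads from stretches shared across strands cannot be told apart without strand.

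The transsulfuration genes CBS and CTH were both higher in every knockdown library than in every control, and neither passed. CTH (chromosome 1, 70411218 to 70439851, plus strand), which releases cysteine, held 167, 204 and 201 counts in the knockdown libraries, against 127, 151 and 122 in the controls. On the log2 scale it was higher by 0.44 ± 0.16 (SE; edgeR adjusted p = 0.0773), with a 95% interval of 0.09 to 0.79. It passed without knockdown replicate 1 (0.55, edgeR adjusted p = 0.0408) and with trends on GC content and gene length removed (0.47, edgeR adjusted p = 0.041). CTH also passed with the replicate block (0.44, edgeR adjusted p = 0.0148).

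CBS (chromosome 21, 43053191 to 43076943, minus strand) has a near-identical copy in GRCh38, CBSL (chromosome 21, 6444869 to 6468040, minus strand), and the table lists both. Of the distinct stretches of 100 bases in CBSL transcripts, 83.5% also occur in CBS transcripts. Of those in CBS transcripts, 50.3% also occur in CBSL transcripts. Reads from shared stretches can fall to either copy. CBS held 145, 171 and 122 counts in the knockdown libraries, against 108, 112 and 116 in the controls. CBSL held 177, 139 and 117 counts after knockdown and 105, 128 and 101 in the controls, so the copies took nearly equal shares. The ratio of CBS to CBSL counts was 1.03 ± 0.206 after knockdown and 1.02 ± 0.137 in the controls (SD, n = 3 each). Summed, they held 322, 310 and 239 counts after knockdown and 213, 240 and 217 in the controls. Scaled by library size the sums were 16.0, 15.6 and 12.8 CPM after knockdown and 12.1, 12.5 and 11.5 CPM in the controls, with no overlap. The log2 fold change of the sum was 0.30 ± 0.14 (SE; edgeR adjusted p = 0.145), and that of the CBS row alone 0.30 ± 0.17 (edgeR adjusted p = 0.218).

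**Figure D3:**
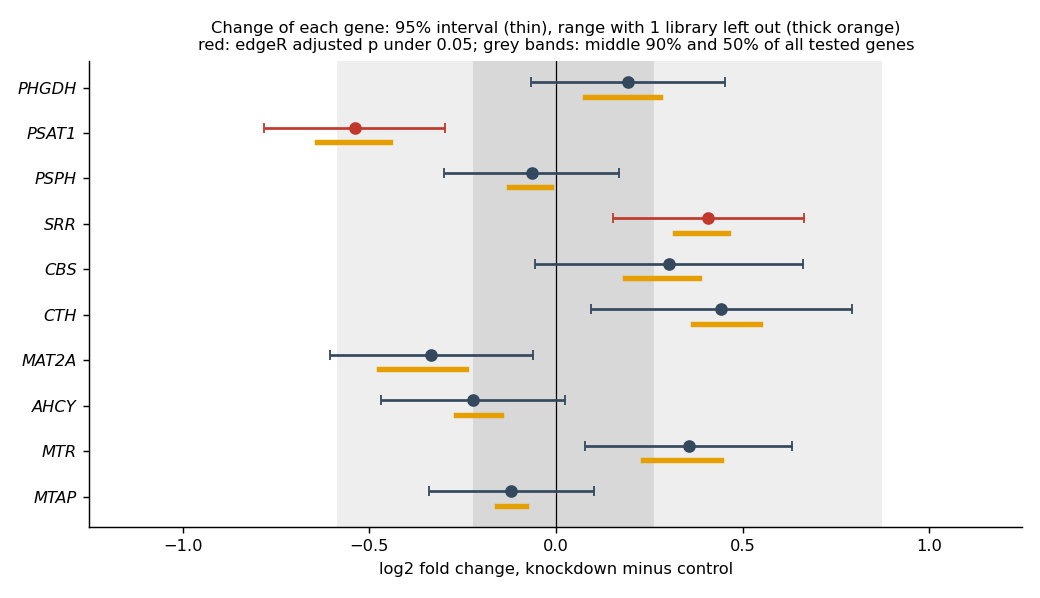
Log2 fold change of each gene, knockdown minus control, with its 95% interval (thin bars), the range over the 6 fits with 1 library removed (thick orange bars), and the middle 90% and 50% of all tested genes (grey bands). PSAT1 at -0.54 and SRR at 0.41 passed (red), and the other 8 did not, although the unadjusted intervals of CTH, MAT2A and MTR leave out 0.

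In the methionine cycle MAT2A and AHCY had values below the controls and MTR values above them, and none passed. MAT2A (chromosome 2, 85539165 to 85545280, plus strand), the SAM synthetase of cells outside the liver, was at 337, 271 and 245 CPM in the knockdown libraries and at 367, 377 and 331 CPM in the controls. Knockdown replicate 1 was higher than control replicate 3, so the groups overlapped. The log2 difference was -0.33 ± 0.12 (SE; edgeR adjusted p = 0.0857), with a 95% interval of -0.61 to -0.06. MAT2A lies near the threshold: it passed by DESeq2 (adjusted p = 0.0491), in edgeR without the low-count filter (adjusted p = 0.0459), without knockdown replicate 1 (-0.47, adjusted p = 0.0228), with knockdown replicate 2 alone (-0.41, adjusted p = 0.0261) and with GC content and length trends removed (-0.35, adjusted p = 0.047). It shares 558 exonic bases with GGCX on the opposite strand, which was at 63.4 ± 8.43 CPM after knockdown and 54.9 ± 1.48 CPM in the controls (SD, n = 3 each).

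AHCY (chromosome 20, 34280268 to 34311802, minus strand) was the most abundant of the 10, at 720, 605 and 710 CPM in the knockdown libraries and 752, 757 and 865 CPM in the controls, with no overlap. The difference was -0.22 ± 0.11 on the log2 scale (SE; edgeR adjusted p = 0.191), with a 95% interval of -0.47 to 0.03. With knockdown replicate 2 alone, the lowest library, it was -0.39. AHCY passed with the replicate block (-0.22, edgeR adjusted p = 0.0342). The 8 listed AHCY pseudogenes had at most 3 counts over the 6 libraries. MTR (chromosome 1, 236795281 to 236903981, plus strand), methionine synthase, was at 68.8, 82.5 and 62.0 CPM after knockdown and 58.7, 58.8 and 49.3 CPM in the controls, with no overlap. Its difference was 0.36 ± 0.13 on the log2 scale (SE; edgeR adjusted p = 0.074), with a 95% interval of 0.08 to 0.63. MTR depends on knockdown replicate 2, its highest library: the value was 0.23 without it (edgeR adjusted p = 0.243) and 0.56 with it alone. Without knockdown replicate 3 it was 0.44 (edgeR adjusted p = 0.0335), and it passed without the low-count filter as well (adjusted p = 0.0424). MTR also passed with the replicate block (0.35, edgeR adjusted p = 0.0023). With trends on GC content and length removed it was 0.21 (adjusted p = 0.0607).

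MTAP (chromosome 9, 21802543 to 21937651, plus strand), a gene often deleted together with its neighbour CDKN2A in bladder cancer, was expressed in every T24 library. It held 1004, 1021 and 902 counts in the knockdown libraries, against 936, 1112 and 970 in the controls. In CPM these are 49.9, 51.5 and 48.3 after knockdown and 53.4, 57.8 and 51.5 in the controls, where the highest knockdown and the lowest control library nearly meet. The difference was -0.12 ± 0.10 on the log2 scale (SE; edgeR adjusted p = 0.43), with a 95% interval of -0.34 to 0.10. It became -0.34 and passed with trends on GC content and length removed (edgeR adjusted p = 0.016). That alternative was added after the data had been seen. ERVFRD-3, a pseudogene that shares 684 exonic bases with MTAP, held 32 counts over the 6 libraries.

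Levels of different genes can be set side by side only per length. Per kilobase of all annotated exons, the order in the controls was AHCY (203 ± 16.3 CPM per kb), PSAT1 (112 ± 2.02), MAT2A (79.9 ± 5.34), PHGDH (16.5 ± 1.68), PSPH (16.0 ± 1.02), SRR (7.37 ± 0.427), MTR (4.89 ± 0.478), MTAP (3.71 ± 0.222), CTH (2.98 ± 0.285) and CBS (0.891 ± 0.0285; SD, n = 3). PHGDH and PSPH did not differ beyond their spread. The level of CBS is that of its own row, without the counts that went to CBSL. After knockdown PSAT1 was at 77.1 ± 10.3 and MAT2A at 63.4 ± 10.5 CPM per kb, values whose libraries overlapped, while the controls held PSAT1 wholly above MAT2A. CTH, at 4.05 ± 0.541 CPM per kb after knockdown, stood above MTAP at 3.41 ± 0.108, although their libraries overlapped.

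The choice of length matters most for genes whose annotated exons together run far beyond the median coding transcript. They come to 9.22 kb for PHGDH, 14.6 kb for MTAP, 6.79 kb for CBS and 3.50 kb for SRR, beside median coding transcripts of 1.71, 3.17, 1.59 and 0.572 kb. For MTR the lengths are close, at 11.4 and 10.4 kb. The median runs over all annotated coding transcripts, 8 for SRR and 8 for CBS. Short partial transcripts among them would lower it and raise the level per kilobase. Per kilobase of the median coding transcript, PHGDH was at 102 ± 13.5 CPM per kb after knockdown and 89.0 ± 9.09 in the controls, close to PSAT1 at 93.8 ± 12.5 after knockdown and below PSAT1 at 136 ± 2.45 in the controls. On that scale the mean of MAT2A, 120 ± 19.9 after knockdown and 151 ± 10.1 in the controls, was above that of PSAT1 in both groups, the reverse of the order by exonic length, although in the knockdown group the libraries of these genes overlapped. PHGDH ranked 3 and PSAT1 ranked 4 of 10 in the knockdown libraries, and PSAT1 ranked 3 and PHGDH 4 in the controls. AHCY ranked 1 on both scales and in both groups. CBS ranked 10 in each by the mean of its own row alone, although per kilobase of the median coding transcript its libraries overlapped those of CTH. Counts that went to its copy CBSL are left out of that level, so the rank may be too low.

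**Figure D4:**
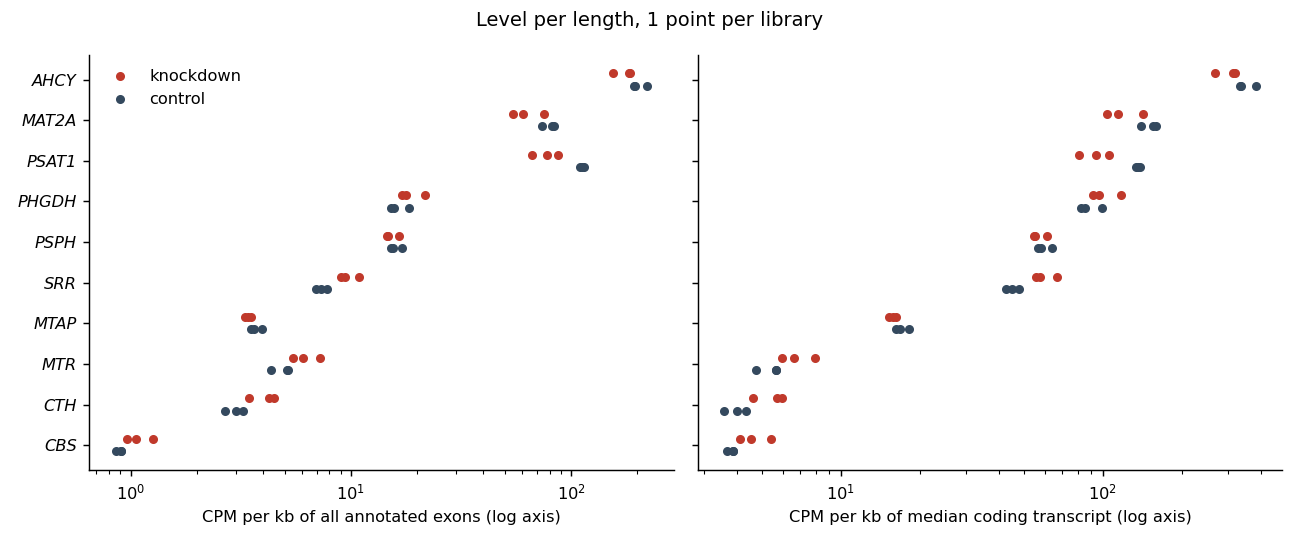
Level of each gene per kilobase, 1 point per library, knockdown in red above control in dark blue, on log axes; the left panel uses the length of all annotated exons and the right panel the median length of coding transcripts. AHCY stands highest in both panels. The mean of CBS, by its own row without CBSL, is lowest in both, but in the right panel its libraries overlap those of CTH. PHGDH moves next to PSAT1 in the right panel.

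Genes around these 10 in the pathway were read from the same fit. Over all tested genes 17.3% passed, 9.71% higher and 7.58% lower, and 6835 of 13896 had values below 0. The counts for each list below stand beside these shares. Those named as called kept their direction with knockdown replicate 2 alone, a fit in which a lone library is assumed to vary as the controls do. Of 19 tested genes of serine and glycine supply and transport, 3 fell and 1 rose, with a median of -0.14. SLC1A5, the main neutral amino acid exchanger, was at 137 ± 10.3 CPM after knockdown and 199 ± 8.96 CPM in the controls (SD, n = 3 each), a log2 fold change of -0.54 ± 0.10. SHMT2, which moves the one-carbon unit from serine to folate in mitochondria, was at 143 ± 12.1 CPM after knockdown and 192 ± 17.1 CPM in the controls (-0.42 ± 0.11). The serine transporter SLC1A4 fell (-0.41 ± 0.13; edgeR adjusted p = 0.0499), a call that ended by DESeq2 (adjusted p = 0.0556), with no filter on low counts (edgeR, 0.074) and on removal of any single library but knockdown replicate 3 (edgeR adjusted p = 0.0562 to 0.163). SLC38A2, a transporter of small neutral amino acids, rose to 895 ± 96.9 CPM in knockdown libraries, against 666 ± 49.1 CPM in controls, and its call ended without knockdown replicate 2 or control replicate 1, 2 or 3 (0.35 to 0.45; edgeR adjusted p = 0.066 to 0.112). SHMT2 lost its call when control replicate 1 was left out (edgeR adjusted p = 0.0541) or control replicate 3 (adjusted p = 0.097).

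Among 13 tested partners of the methionine cycle 2 rose and none fell, with a median of -0.07. AHCYL2, a relative of AHCY, rose by 0.52 ± 0.14 on the log2 scale, and LMBRD1, a lysosomal protein of cobalamin export, by 0.47 ± 0.13. AHCYL2 did not pass without knockdown replicate 2 or control replicate 1 or 3 (0.42 to 0.52; edgeR adjusted p = 0.0689 to 0.116). LMBRD1 did not pass without knockdown replicate 3 or any 1 control (0.31 to 0.49; edgeR adjusted p = 0.0578 to 0.11), nor with knockdown replicate 2 alone (0.35, adjusted p = 0.0533) or with GC content and length trends removed (0.29, adjusted p = 0.101). MAT1A, BHMT, BHMT2 and GNMT, enzymes typical of liver, were too low to test, and BHMT had no count. MTRR, which keeps MTR active, was at 55.0 CPM after knockdown and 62.6 CPM in the controls and did not pass (edgeR adjusted p = 0.221).

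Of 10 tested genes that make methylthioadenosine or salvage it downstream of MTAP, 1 fell and 9 had values below 0, with a median of -0.23. Over all tested genes 7.58% fell and 6835 of 13896 had values below 0. The gene that fell was SRM, spermidine synthase, at 74.9 ± 12.2 CPM after knockdown and 138 ± 21.8 CPM in the controls (SD, n = 3 each; log2 fold change -0.88 ± 0.14, edgeR adjusted p = 0.0027). Of 6 tested SAM-dependent methyltransferases, listed mainly for small molecules, edgeR called 0 and DESeq2 0, with 2 at an unadjusted p under 0.05 (median -0.20). Among their most abundant members, ICMT, which acts on proteins rather than small molecules, had a log2 fold change of -0.11.

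PRMT5 is the arginine methyltransferase that methylthioadenosine inhibits when MTAP is lost. Of 11 tested genes of its complex and of other arginine methyltransferases 4 fell and none rose, and 10 had values below 0 (median -0.21). Over all tested genes 7.58% fell, and 6835 of 13896 had values below 0. COPRS, a subunit that guides PRMT5 to histones, fell by 0.60 ± 0.16, the obligate partner WDR77 by 0.56 ± 0.13, and the adaptor RIOK1 by 0.45 ± 0.11. PRMT5, named after its value had been seen, was at 151 ± 14.6 CPM after knockdown and 188 ± 2.25 CPM in the controls (SD, n = 3 each; -0.32 ± 0.10, edgeR adjusted p = 0.0481), a call that ended without the low-count filter (adjusted p = 0.0571) and on removal of any single library but knockdown replicate 1 (-0.34 to -0.26; edgeR adjusted p = 0.0609 to 0.143). COPRS did not pass without knockdown replicate 1 or control replicate 1 or 3 (edgeR adjusted p = 0.0546 to 0.109). RIOK1 did not pass in edgeR without control replicate 1 (adjusted p = 0.0811) or 3 (adjusted p = 0.0545), and WDR77 without control replicate 3 (adjusted p = 0.061). With knockdown replicate 2 alone COPRS was at -0.999 and WDR77 at -0.875 on the log2 scale.

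Of 15 tested genes of cysteine, sulfide and glutathione metabolism 1 fell (median -0.05). It was SLC3A2, the heavy chain shared by the cystine and leucine transporters, at 243 ± 44.0 CPM after knockdown and 528 ± 60.4 CPM in the controls (SD, n = 3 each; -1.12 ± 0.14, edgeR adjusted p = 0.00073). Its partner in cystine uptake, SLC7A11, was at 53.9 CPM after knockdown and 52.3 CPM in the controls and did not pass (edgeR adjusted p = 0.878).

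Among 10 regulators known to act on serine synthesis genes, DDIT3 and MYC fell and none rose (median -0.06). A count of 2 among 10 is close to the 17.3% called over all tested genes. DDIT3, a stress-induced factor, was at 14.3, 12.7 and 18.3 CPM in the knockdown libraries, against 29.2, 26.8 and 31.8 CPM in the controls (-0.96 ± 0.15, edgeR adjusted p = 0.002). MYC was at 108 ± 5.98 CPM after knockdown and 141 ± 8.80 CPM in the controls (SD, n = 3 each; -0.38 ± 0.10), a call that ended without knockdown replicate 2 or control replicate 1 or 3 (edgeR adjusted p = 0.0579, 0.102 and 0.1). The mRNA of ATF4, the factor known to drive PHGDH, PSAT1 and PSPH, was at 500 ± 55.2 CPM after knockdown and 502 ± 35.8 CPM in the controls, with overlapping groups.

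**Figure D5:**
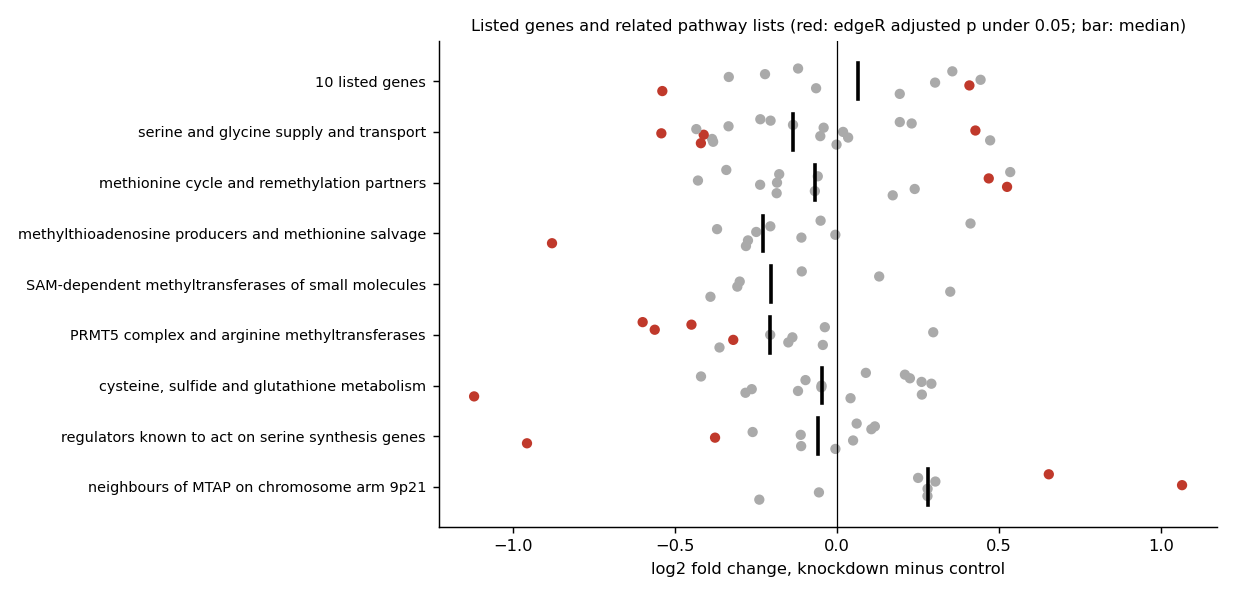
Log2 fold changes, knockdown minus control, of the 10 listed genes and of 8 related lists; each point is a tested gene, red points passed the edgeR test at an adjusted p under 0.05, and black bars are medians. The medians run from -0.23 for methylthioadenosine and salvage genes to 0.28 for the neighbours of MTAP.

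Of the tested chromosomal neighbours of MTAP, 6 had values above 0 and 2 below, beside 7061 of 13896 above 0 over all tested genes. Of these 8, 2 rose and none fell, with a median of 0.28, beside 9.71% higher and 7.58% lower over all tested genes. ELAVL2, an RNA-binding protein gene, was at 3.53 ± 0.135 CPM after knockdown and 1.68 ± 0.498 CPM in the controls (SD, n = 3 each; 1.06 ± 0.26). MLLT3, a transcription elongation cofactor, rose by 0.65 ± 0.15. ELAVL2 did not pass without control replicate 1 (0.85, edgeR adjusted p = 0.0755), nor MLLT3 without control replicate 1 or 2 (adjusted p = 0.066 and 0.0524). CDKN2A was at 46.5 CPM after knockdown and 54.9 CPM in the controls and did not pass (edgeR adjusted p = 0.308).

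The genes whose pattern over the 6 libraries was most like that of PSAT1 were LHFP, CD82 and ATXN10. Likeness was the root mean square difference of log2 CPM, each gene centred on its own mean, and it was 0.064, 0.072 and 0.074. For SRR they were PTGR1, ANXA2R and ZC4H2, at 0.037, 0.038 and 0.039. None of these 6 is among the 10 enzymes or the related lists.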

How the data were processed

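RNA sequencing libraries of T24 cells were compared, 3 with MTHFD2 shRNA2 and 3 with control virus, grouped by title. The deposited table holds raw counts for each gene symbol, without normalization. Per the submitters' processing notes, HISAT2 2.0.4 and GRCh38 were used. The sources used here do not give the counting tool, annotation or strandedness. Replicates differed by more than sampling noise in each pair, with a chi-square of 2.56 to 31.6 per degree of freedom.

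Genes were kept by filterByExpr, scaled by TMM and tested with glmQLFit (robust) and glmQLFTest (edgeR 4.0.16, limma 3.58.1, R 4.3.3), with a threshold of 0.05 on Benjamini-Hochberg adjusted p. Standard errors are log2 fold changes over the root of F. CPM use TMM-scaled library sizes, and log2 CPM a prior count of 2. Coordinates and lengths came from GENCODE release 29, promoters from RefSeq.

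The members and lists were chosen with earlier results of these data known. All 10 members are named, with MTHFD2 and CBSL. Genes that share exonic bases with members and hold counts in the table are given beside them. From each related list up to 3 genes past the threshold in each direction are named by size, or the 2 most abundant where none passed, of which 1 is not reported here. For each called member the 3 genes of nearest pattern are named, among those averaging 2 log2 CPM or more. Other genes were picked after their values were seen: MTRR, SLC7A11, ATF4, CDKN2A, CPS1, PRMT5, the bladder line markers and the genes too low to test. Also run were DESeq2 1.42.0, RLE scaling, no or a stricter low-count filter, a replicate block, a threshold of 0.01 and the removal of each library in turn. Added after seeing the data were knockdown replicate 2 alone and removal of GC content and length trends. The test was first tried on simulated counts.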

Additional observations from a re-analysis of the deposited data

How the results depend on the processing

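PSAT1 kept its direction and its call in all 13 alternatives at the threshold of 0.05 (-0.64 to -0.44), while SRR kept its direction in all 13 and its call in 8. Recomputed under each alternative were the enzymes, CBSL, MTHFD2 and the genes named from the related lists by rule with PRMT5, and none of these that was called in any setting changed sign. MTHFD2 lay between -2.62 and -2.39. The number of all genes called, 1349 higher and 1053 lower, was 600 to 1468 higher and 368 to 1213 lower with 1 library left out, and 472 and 277 at a threshold of 0.01. With knockdown replicate 2 alone, where a lone library is assumed to vary as the controls do, it was 2212 and 2220. It was 1650 and 1378 without the low-count filter and 1423 and 1278 by DESeq2. With GC content and length trends removed it was 1729 higher and 1648 lower. Of the 10 enzymes, 1 higher and 1 lower were called with all libraries. The counts were 0 to 2 higher and 1 to 2 lower with 1 library left out, 2 and 2 without the low-count filter, 1 and 2 by DESeq2, 1 and 3 with knockdown replicate 2 alone, 2 and 3 with trends removed, and 0 and 1 at a threshold of 0.01. Where a call of an enzyme changed, the cause was not tested. PSPH, never called, was at 0.01 with trends removed.

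The replicate numbers were not taken as pairs, because the labels do not say that same-numbered libraries shared a culture or day. Same-numbered libraries had correlations of -0.02, 0.30 and 0.35 between their deviations, and 2 of the 3 knockdown libraries were closest to the control of their own number. These values do not settle whether the libraries were paired. With the replicate block, 2566 genes were called higher and 2496 lower, and 3 and 3 of the enzymes. These were SRR, CTH and MTR higher and PSAT1, MAT2A and AHCY lower. Among the enzymes depth limits CBS, CBSL and CTH most, with 101 to 204 counts a library.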
